A study of Mus musculus with 6 samples.

Results

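Heat shock proteins and their DNAJ co-chaperones were compared between epithelioid hemangioendothelioma (EHE), a vascular tumour whose cells resemble endothelium, and liver of C57BL6 mice. Members were all genes whose symbol began with Hspa, Hspb, Hspd, Hspe, Hsph or Hsp90, or with Dnaja, Dnajb or Dnajc, each followed by its number. The 15 matching symbols holding -ps, the mark of a pseudogene, were left out. This gave 73 members among the 55401 genes of the count table. The study sequenced polyadenylated RNA from 6 samples in 2 groups, 3 EHE tumours taken from the peritoneal surface and 3 livers, which the submitters call control tissue. All 6 samples carried the C57BL6 strain label, and the series title names a genetically engineered mouse model. The sources used here give no engineered allele, age or treatment. Tumour state and tissue differ together between the groups and cannot be told apart, and in bulk RNA fewer cells of a type and less RNA per cell cannot be told apart either. The labels leave unsaid whether each sample is a different animal, and p-values then cover the spread among these samples alone, which may be technical. Where 3 values are given for a group, they stand in the order of libraries 1, 2 and 3.

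Heat shock proteins of the HSP70 family bind unfolded stretches of protein and release them under control of ATP, DNAJ proteins deliver those clients and trigger the ATP hydrolysis, and HSP110-type proteins help release the nucleotide. Each compartment has its own set. The cytosol holds a constitutive HSP70 and HSP90 pair and an inducible set driven by heat shock factor 1, which binds inverted repeats of GAA and TTC called heat shock elements. The endoplasmic reticulum (ER) holds BiP and GRP94, which the unfolded protein response raises through ER stress elements. The mitochondrion holds mortalin and the HSP60 and HSP10 chaperonin, while small heat shock proteins hold unfolded proteins without ATP, and several of them are most abundant in muscle. Hepatocytes secrete large amounts of protein and are rich in ER and mitochondria.

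Libraries held from 33881392 to 40277346 counts, the whole-number tallies per gene in the deposited table. Defining markers followed the tissue labels. The summed level of 10 endothelial markers was 4263, 2327 and 3758 CPM in the tumours and between 226 and 279 CPM in livers, where CPM is the count brought to a common library size, here with library sizes scaled by the trimmed mean of M-values (TMM). The summed level of 8 hepatocyte markers was 13.7, 15.3 and 7.67 CPM in the tumours and between 157559 and 237551 CPM in the livers. Other material also differed between libraries. Of 14 skeletal muscle markers, the 13 that could be tested were higher in tumours, and their sum was 1912, 14795 and 3162 CPM in the tumours against 1.65 to 6.76 CPM in livers, so that tumour 2 stood apart. Liver 2 also stood apart, with counts in 33274 genes where livers 1 and 3 had them in 19767 and 19001.

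Members made up a larger part of the counts in tumours, but their summed TMM-scaled level was higher in livers. They made up 0.855%, 0.958% and 0.844% of all counts in the tumours and 0.596%, 0.553% and 0.661% in the livers, without overlap of the groups. Their summed level was 5636, 6233 and 5206 CPM in the tumours and 9445, 8117 and 10805 CPM in the livers, which did not overlap either and stood in the opposite order. Of the 73 members, 69 passed the low-count filter and were tested with edgeR's quasi-likelihood test. The other four, Dnajb7, Dnajb8, Dnajc5b and Dnajc5g, had at most 7 counts in any library. At an adjusted p under 0.05, 21 of 69 members (30.4%) were higher in tumours, where 29.5% of all 17387 tested genes were called higher. Another 25 members (36.2%) were lower, where 28.7% of all genes were called lower, and 23 were not called. The median log2 fold change, tumour over liver, was -0.18 over members and 0.10 over all genes tested. For 56 of 69 members (81.2%) tumours and livers did not overlap, against 68.2% of all genes.

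These directions depend on how libraries are scaled. Scaling by library totals alone, in place of TMM, moved the median of all tested genes to 1.38 on the log2 scale, a shift that all genes share. It gave 42 higher and 6 lower members of 69, where 61.5% of all tested genes were called higher and 12.5% lower. Relative to the median of all genes, the medians of the classes stayed nearly in place under that scaling, as a shared shift must leave them. They were 1.39 and 1.41 for inducible cytosolic members, -1.02 and -1.0 for ER members, and -1.82 and -1.81 for mitochondrial members with TMM and library totals respectively. These near-equal values are no test of which scaling is right. Higher and lower are therefore used below for TMM-scaled levels, which set the bulk of genes near equality, and a member whose direction turned with library totals is named where it is described.

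**Figure D1:**
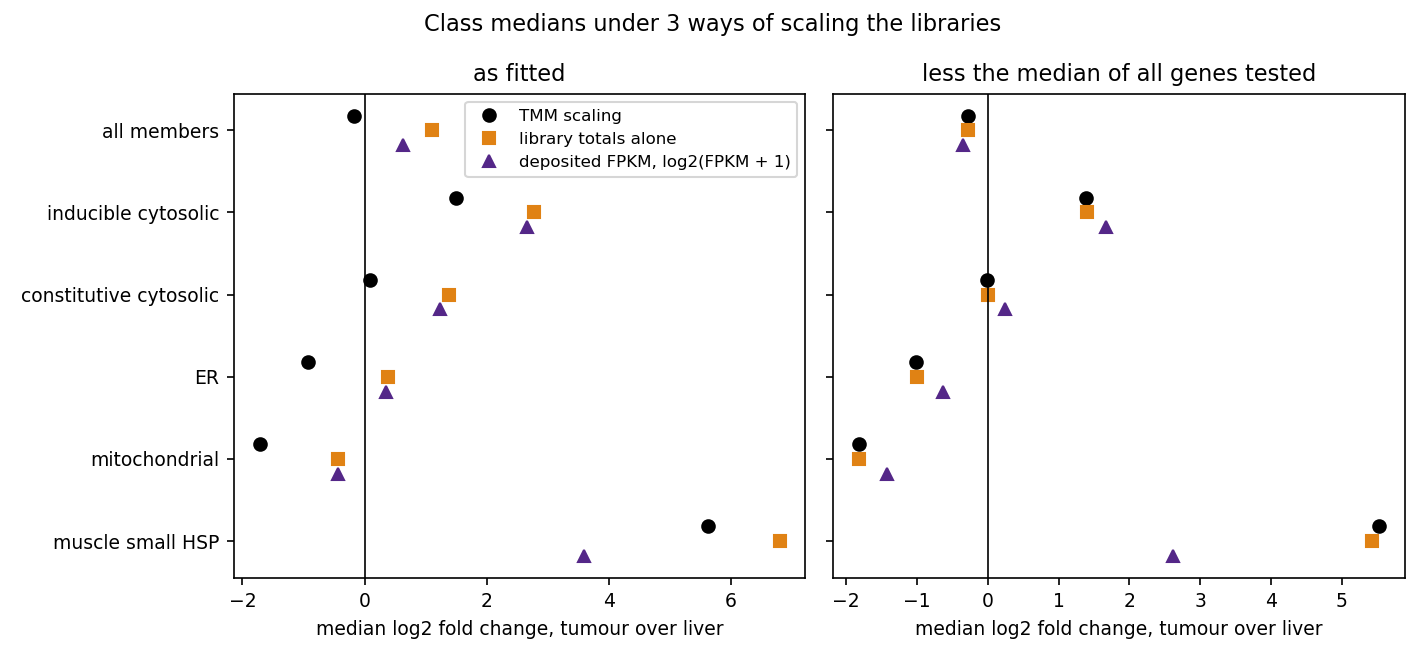
Median log2 fold change (tumour over liver) of all tested members and of 5 classes under TMM scaling, library totals alone and the deposited FPKM values as log2(FPKM + 1), as fitted (left) and less the median of all genes tested (right). The ER median was -0.92 with TMM and 0.38 with library totals on the left, and -1.02 and -1.0 on the right.

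The classes held very different parts of the chaperone RNA. As a share of all member counts, a quantity that needs no scaling between libraries, the 6 inducible cytosolic members held 11.2%, 8.53% and 10.5% in the tumours and 3.01%, 2.96% and 3.46% in the livers. The 10 mitochondrial members went the other way, with 7.49%, 8.31% and 6.92% in tumours and 17.5%, 19.9% and 15.8% in livers. Neither of these classes overlapped between the groups. The 7 constitutive cytosolic members held from 33.4% to 35.3% in tumours and from 34.1% to 34.8% in livers, and the groups overlapped. The 13 ER members held 27.7%, 20.0% and 25.3% in tumours and 27.9%, 26.1% and 30.4% in livers, which also overlapped, so the ER class was a similar part of the chaperone RNA in tumour 1 and in the livers. The muscle small heat shock proteins held 13.0% in tumour 2 and between 2.27% and 3.90% in each of the other five libraries.

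**Figure D2:**
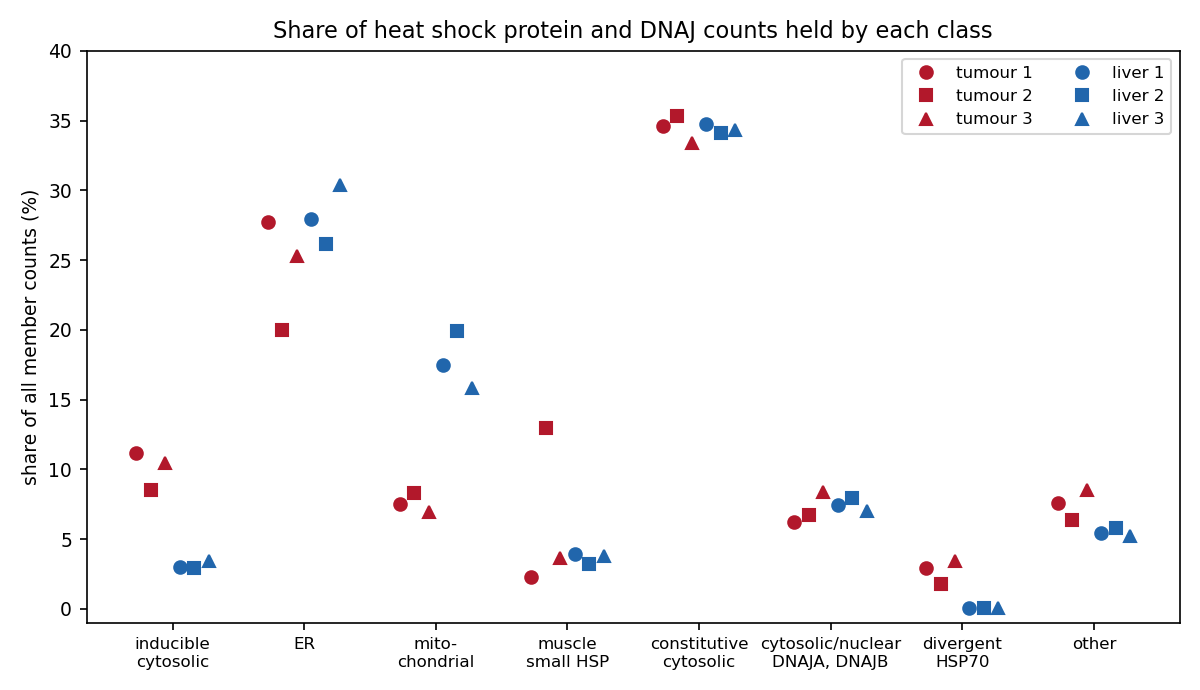
Share of all member counts (%) held by each class of heat shock proteins and DNAJ proteins, with each point a library (red, tumours; blue, livers). Inducible members held 8.53% to 11.2% in tumours and 2.96% to 3.46% in livers, mitochondrial members 6.92% to 8.31% and 15.8% to 19.9%.

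**Figure D3:**
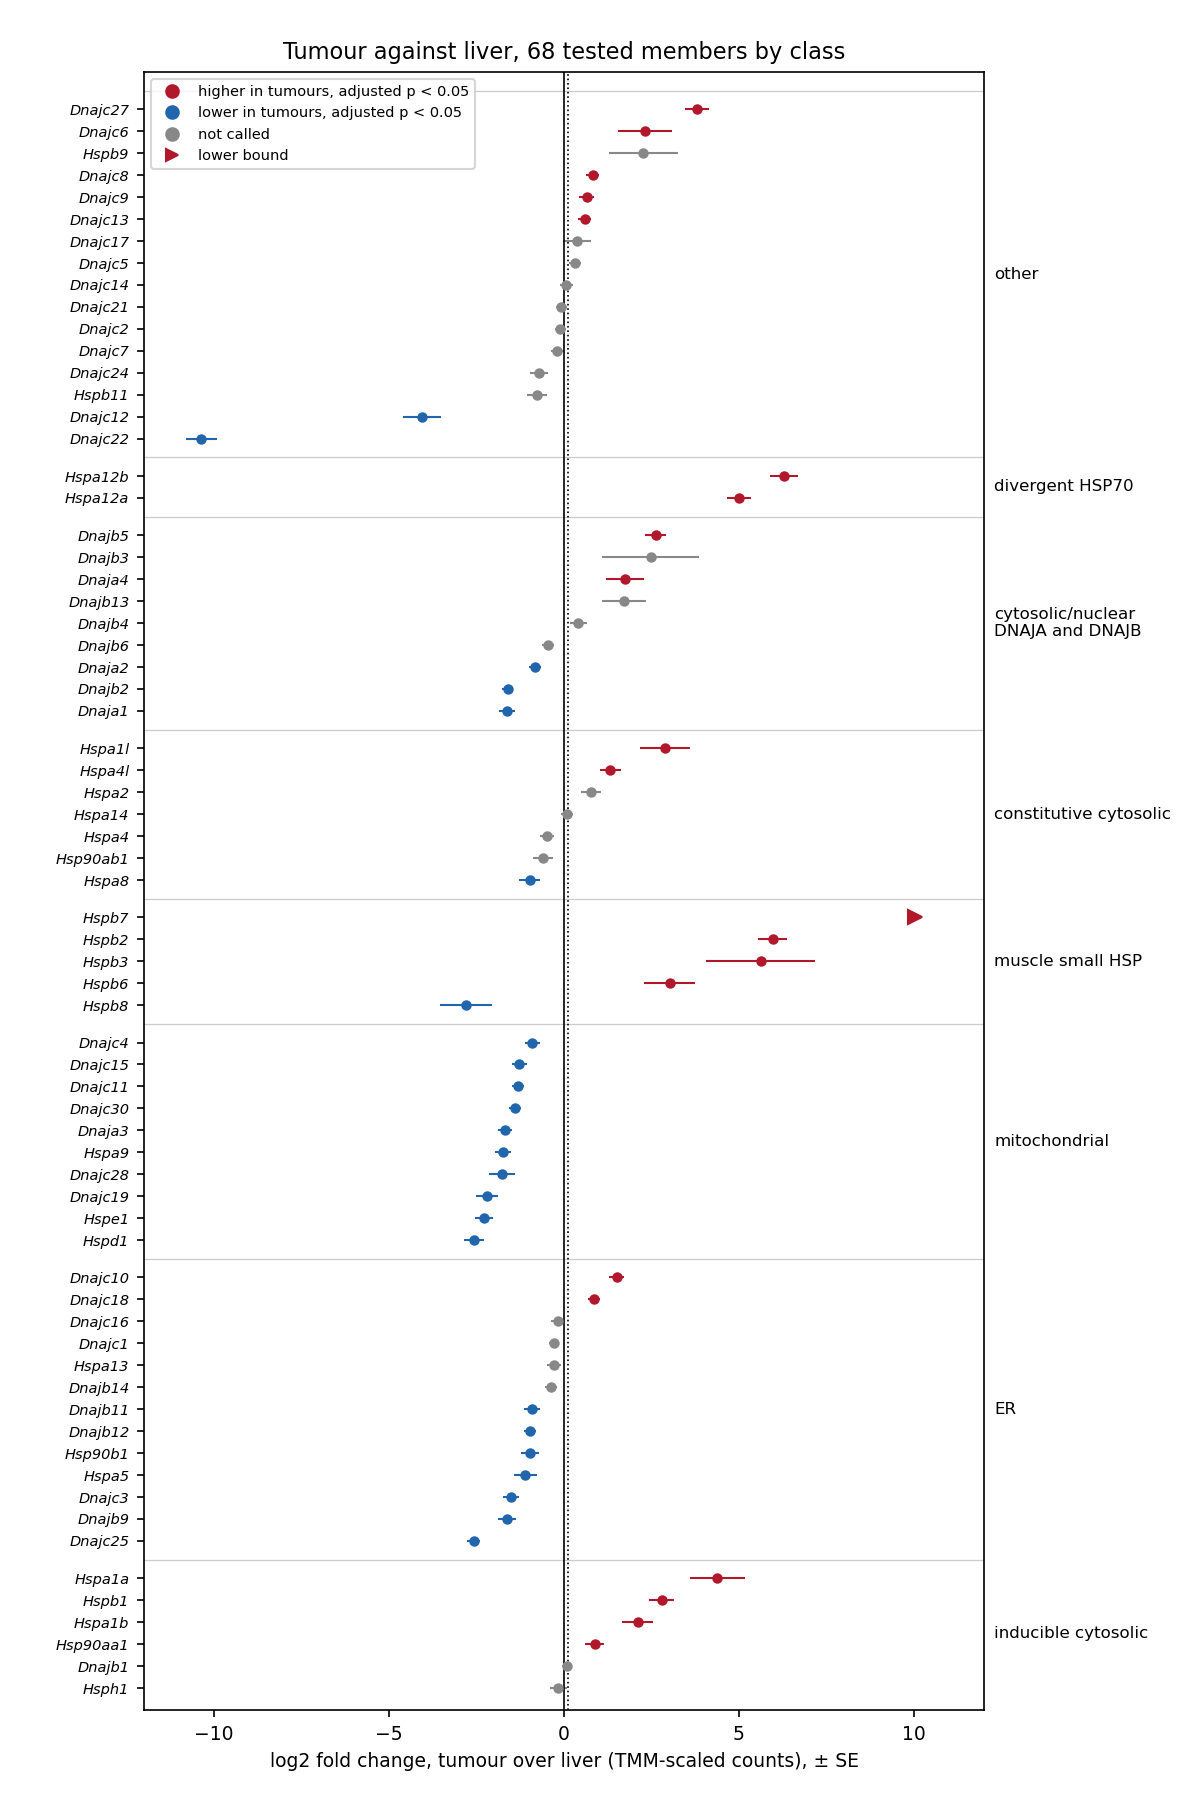
Log2 fold change (tumour over liver, TMM scaling) of 68 of the 69 tested members, grouped by class, with the standard error as a bar and the call by colour; the dotted line is the median of all genes (0.10) and the arrow for Hspb7 is its lower bound. All 10 mitochondrial members lay on the liver side and 4 of the 6 inducible members were called on the tumour side; with library totals alone, 13 of the members named in the text change side.

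Promoter sequences are shown for members whose classes are contrasted here, because heat shock elements and ER stress elements are the known control sites of those classes. They were read from RefSeq on build GRCm38.p6 and hold the 250 bases before the RefSeq start of each gene, 5′ to 3′ on the strand of the gene. Capitals mark a match to GAANNTTC or TTCNNGAA, the heat shock element. Hspa1a (chr17:34972157-34972406, minus strand) and Hspa1b (chr17:34959239-34959488, minus strand) encode the inducible HSP70, and their promoters were nearly the same sequence, identical at 296 of 300 bases. Hspb1 (chr5:135887669-135887918, plus strand) encodes HSP27, and Hsph1 (chr5:149636337-149636586, minus strand) encodes HSP110.
Hspa1a: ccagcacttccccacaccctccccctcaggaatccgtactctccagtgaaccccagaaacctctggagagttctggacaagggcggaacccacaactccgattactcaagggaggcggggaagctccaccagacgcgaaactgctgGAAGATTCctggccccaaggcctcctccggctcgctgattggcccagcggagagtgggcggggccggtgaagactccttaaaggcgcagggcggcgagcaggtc
Hspa1b: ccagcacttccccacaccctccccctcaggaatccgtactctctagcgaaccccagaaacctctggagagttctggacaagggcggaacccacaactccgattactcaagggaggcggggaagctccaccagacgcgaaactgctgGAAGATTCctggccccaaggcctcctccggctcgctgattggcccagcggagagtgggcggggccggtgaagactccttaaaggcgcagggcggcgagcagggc
Hspb1: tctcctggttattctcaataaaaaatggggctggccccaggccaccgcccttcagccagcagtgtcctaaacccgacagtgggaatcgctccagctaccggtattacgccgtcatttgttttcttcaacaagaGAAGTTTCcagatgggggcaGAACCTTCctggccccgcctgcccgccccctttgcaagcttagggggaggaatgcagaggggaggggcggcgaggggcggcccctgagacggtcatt
Hsph1: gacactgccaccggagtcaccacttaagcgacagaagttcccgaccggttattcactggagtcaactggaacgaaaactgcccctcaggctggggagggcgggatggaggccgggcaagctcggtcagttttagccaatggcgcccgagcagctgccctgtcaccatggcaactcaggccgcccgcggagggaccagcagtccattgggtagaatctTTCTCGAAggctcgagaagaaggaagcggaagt
The element lay 104 to 97 bases before the start in both HSP70 genes, 117 to 110 and 97 to 90 bases before it in Hspb1, and 33 to 26 bases before it in Hsph1. RefSeq also gives Hsph1 a start further downstream. The 300 bases around either start (250 before and 50 after) held 3 matches, the others lying after the start used here. The mitochondrial chaperonin genes Hspd1 and Hspe1 lie head to head on chromosome 1, and the 215 bases before the start of Hspe1 (chr1:55087933-55088147, plus strand) are shown because they hold 3 overlapping matches 89 to 72 bases before that start.
Hspe1: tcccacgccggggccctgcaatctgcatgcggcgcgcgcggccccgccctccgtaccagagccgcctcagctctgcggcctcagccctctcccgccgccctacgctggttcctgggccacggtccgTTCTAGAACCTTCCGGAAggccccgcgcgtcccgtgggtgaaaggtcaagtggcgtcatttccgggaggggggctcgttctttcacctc
For the ER genes the capitals mark the ER stress element, CCAAT, then 9 bases of any kind, then CCACG, on either strand. Hspa5 (chr2:34771840-34772089, plus strand) encodes BiP, Hsp90b1 (chr10:86705445-86705694, minus strand) encodes GRP94, and Dnajc3 (chr14:118937682-118937931, plus strand) encodes the BiP co-chaperone p58IPK.
Hspa5: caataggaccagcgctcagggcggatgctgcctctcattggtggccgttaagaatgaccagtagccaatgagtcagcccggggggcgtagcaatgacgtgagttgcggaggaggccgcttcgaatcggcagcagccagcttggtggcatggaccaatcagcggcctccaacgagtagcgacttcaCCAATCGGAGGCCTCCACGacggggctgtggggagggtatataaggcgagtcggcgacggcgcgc
Hsp90b1: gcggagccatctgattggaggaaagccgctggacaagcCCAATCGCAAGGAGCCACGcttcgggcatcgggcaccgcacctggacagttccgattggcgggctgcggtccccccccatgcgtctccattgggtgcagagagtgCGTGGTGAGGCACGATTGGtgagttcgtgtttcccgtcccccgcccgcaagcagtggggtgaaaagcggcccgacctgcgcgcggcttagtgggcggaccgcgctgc
Dnajc3: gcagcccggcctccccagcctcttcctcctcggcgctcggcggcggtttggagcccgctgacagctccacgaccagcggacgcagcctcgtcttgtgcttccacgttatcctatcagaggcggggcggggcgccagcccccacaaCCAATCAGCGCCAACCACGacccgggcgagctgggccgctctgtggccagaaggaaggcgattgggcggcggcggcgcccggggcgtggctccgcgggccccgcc
The ER stress element occurred in 39 of 32544 distinct RefSeq promoters of 300 bases (0.12%), the 250 before and 50 after the start, and 3 members were among its genes, all of the ER class. The heat shock element occurred in 15.1% of those promoters. Of the 58 members with a promoter in the table, 16 (27.6%) had it in at least 1 promoter, among them 4 of 5 inducible, 3 of 4 muscle small heat shock protein, 2 of 7 mitochondrial and 1 of 11 ER members. The share of members is per gene, over 75 promoters, and cannot be set directly against the share of promoters. The 2 mitochondrial members were Hspd1 and Hspe1, whose matches are the same stretch read from opposite strands. A match of letters is a description and not a measured binding site.

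Of the 6 inducible cytosolic members, 4 were higher in tumours, none was lower and 2 were not called, where 29.5% of all tested genes were called higher and 28.7% lower. Those called higher were Hspa1a, Hspa1b, Hspb1 and Hsp90aa1, and the pair not called, Dnajb1 and Hsph1, are co-chaperones of HSP70. Hspa1a had 12, 13.9 and 10.1 CPM in the tumours and 0.0406, 0.867 and 0.825 CPM in the livers, the lowest being a library with 1 count. Every tumour lay above every liver, and the log2 fold change was 4.37 (SE 0.79; adjusted p = 0.00283, edgeR). Hspa1b, its neighbour on chromosome 17, had 42.7, 48.8 and 43.0 CPM in tumours and 4.42, 10.3 and 16.6 CPM in livers. Its livers spread more widely than its tumours, the groups did not overlap, and the log2 fold change was 2.1 (SE 0.44; adjusted p = 0.0054). The 2 genes have near-identical transcripts, with 1918 bases equal across open reading frames of 1926 and 1929 bases, so how reads were divided between them is uncertain. Hspa1a counts were 28.1%, 28.4% and 23.5% of Hspa1b counts in tumours and 0.917%, 8.44% and 4.98% in livers.

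Hspb1, whose product HSP27 guards actin filaments, had 114, 121 and 80.5 CPM in the tumours and 22.5, 9.49 and 13.6 CPM in the livers. All tumours were above all livers, with a log2 fold change of 2.79 (SE 0.35; adjusted p = 5.66e-04). Hsp90aa1, the stress-responsive cytosolic HSP90, had 359, 235 and 311 CPM in tumours and 162, 124 and 205 CPM in livers. The groups did not overlap, tumour 2 and liver 3 being the nearest pair, and the log2 fold change of 0.88 (SE 0.27; adjusted p = 0.0270) lost its call when tumour 1, tumour 3, liver 1 or liver 2 was left out (adjusted p from 0.0648 to 0.0794). Dnajb1, the HSP40 that works with inducible HSP70, had 47.7, 47.0 and 46.3 CPM in tumours and 41.7, 42.4 and 49.2 CPM in livers. These values overlapped (log2 fold change 0.08, SE 0.14; adjusted p = 0.647), and it was called higher at 1.37 with library totals alone (adjusted p = 1.60e-04). Hsph1 had 55.1, 66.2 and 52.9 CPM in tumours and 53.5, 52.9 and 88.8 CPM in livers, also overlapping. Its log2 fold change was -0.16 (SE 0.24; adjusted p = 0.589), and it was 0.14 without liver 3 and 1.13 with library totals alone.

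Genes of the immediate-early response, which rise within minutes of handling or stress, mostly differed in the same direction as the inducible members called higher. Of 9 such markers, 8 were higher in tumours, and their sum was 909, 718 and 735 CPM in the tumours and 127, 111 and 168 CPM in the livers. All 6 cell division markers were higher too, with sums of 283, 114 and 124 CPM in tumours against 11.0 to 12.8 CPM in livers. Whether handling or division had a part in the levels of the inducible members was not tested.

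The constitutive partners of the inducible genes did not follow them. Hspa8, the constitutive HSP70 of the cytosol, had 764, 1001 and 808 CPM in the tumours and 1661, 1390 and 2026 CPM in the livers. Every tumour was below every liver, with a log2 fold change of -0.98 (SE 0.29; adjusted p = 0.0236) that became 0.31 with library totals alone and lost its call without tumour 1, tumour 3, liver 1 or liver 3 (adjusted p from 0.0614 to 0.106). Hsp90ab1, the constitutive HSP90, had 935, 1012 and 715 CPM in tumours and 1432, 1171 and 1445 CPM in livers, and was not called (log2 fold change -0.60, SE 0.28; adjusted p = 0.101). It was called lower by DESeq2 (adjusted p = 0.0173) and limma-voom (adjusted p = 0.0413), and its sign turned to a called 0.68 with library totals alone (adjusted p = 0.0476). Of the 7 constitutive members, 2 were higher, 1 was lower and 4 were not called. As shares, 28.6% were higher and 14.3% lower, against 29.5% and 28.7% of all tested genes. The higher pair were Hspa1l, an HSP70 known from testis, and Hspa4l, an HSP110-type protein. Hspa1l was at a low level, 1.16, 2.39 and 0.866 CPM in tumours and 0.0811 to 0.303 CPM in livers (log2 fold change 2.89, SE 0.71; adjusted p = 0.0110), and of 5 male germ cell markers none had enough counts to be tested. A predicted gene on the other strand covers 1778 of the 2472 exon bases of Hspa1l, so part of its counts is uncertain. Hspa4l had 92.0, 41.3 and 80.9 CPM in tumours and 26.9, 29.4 and 29.2 CPM in livers (log2 fold change 1.32, SE 0.30; adjusted p = 0.00742).

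Ratios of 2 genes within a library are free of library scaling and gave the same contrast. The count ratio of Hsp90aa1 to Hsp90ab1 was 0.384, 0.232 and 0.435 in the tumours and 0.113, 0.106 and 0.142 in the livers. Every tumour ratio was above every liver ratio, with a difference in mean log2 ratio of 1.5 (two-sided exact permutation p = 0.1, the smallest that 3 against 3 samples can give). The count ratio of Hspa1a plus Hspa1b to Hspa8 was 0.0716, 0.0626 and 0.0658 in tumours and 0.00269, 0.00801 and 0.0086 in livers, a difference of 3.55 in mean log2 ratio (two-sided exact permutation p = 0.1, again the smallest possible). Tumours were close to one another in this ratio, while liver 1 was below livers 2 and 3. In contrast, the count ratio of Hspa5 to Hspa8 was 0.731, 0.430 and 0.483 in tumours and 0.613, 0.479 and 0.636 in livers, which overlapped (log2 difference -0.10, two-sided exact permutation p = 0.9), and this difference turned to 0.0559 without tumour 2 and to 0.263 with FPKM values.

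**Figure D4:**
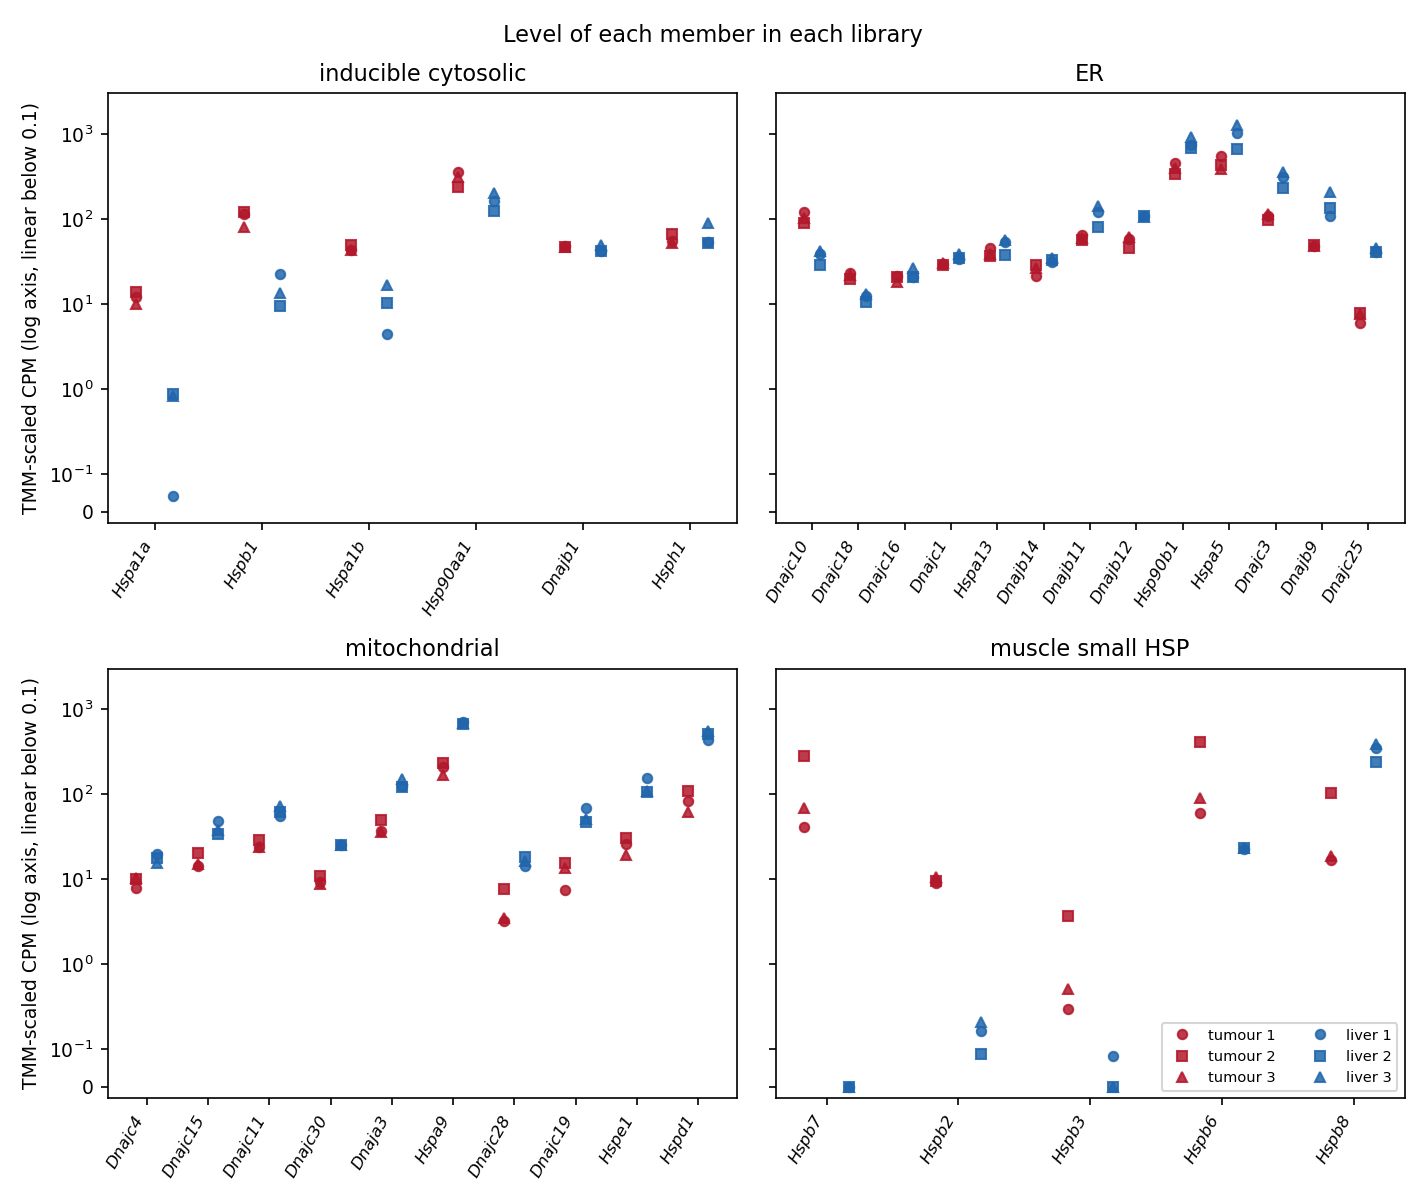
Level of each inducible, ER, mitochondrial and muscle small heat shock member in each library, in TMM-scaled CPM on a log axis that is linear below 0.1 (red, tumours; blue, livers; marker shape, replicate number). All 10 mitochondrial members show tumours below livers, the inducible Hspa1a, Hspa1b, Hspb1 and Hsp90aa1 show tumours above livers, and Hspb7 lies at 0 in all 3 livers; with library totals alone the mitochondrial Dnajc4 and Dnajc15, the inducible Hsph1 and 8 ER members (Dnajb11, Dnajb12, Dnajb14, Dnajc1, Dnajc16, Hsp90b1, Hspa13 and Hspa5) turn sides.

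Of the 13 ER members, 7 were lower in tumours, 2 were higher and 4 were not called, with a median log2 fold change of -0.92 that became 0.38 with library totals alone, where 6 were higher and 1 was lower. Of all tested genes, 29.5% were called higher and 28.7% lower with TMM, and 61.5% and 12.5% with library totals alone. Less the median of all genes, the ER median was -1.02 with TMM and -1.0 with library totals. The lower members included the main ER chaperones. Hspa5, the ER HSP70 known as BiP, had 559, 430 and 390.5 CPM in the tumours and 1019, 666 and 1288 CPM in the livers. All tumours were below all livers (log2 fold change -1.11, SE 0.33; adjusted p = 0.0233), liver 2 coming closest to the tumours, and the value was 0.18 with library totals alone, where it was not called. Its call was lost without tumour 3, liver 1 or liver 3 (adjusted p from 0.0723 to 0.0977). Hsp90b1, the ER HSP90 known as GRP94, had 459, 334 and 398 CPM in tumours and 738, 691 and 923 CPM in livers. It was lower without overlap (log2 fold change -0.98, SE 0.26; adjusted p = 0.0143), lost the call without liver 3 (adjusted p = 0.0695), and stood at 0.31 with library totals alone.

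Of the 10 DNAJ proteins of the ER, 5 were lower, 2 were higher and 3 were not called. Dnajb9, an ER co-chaperone that sends misfolded proteins to degradation, had 48.2, 50.03 and 48.0 CPM in the tumours and 109, 134 and 208 CPM in the livers. Its tumours were tightly grouped, its livers were spread, and the log2 fold change was -1.62 (SE 0.26; adjusted p = 0.00171). Dnajc3 had 108, 98.6 and 113 CPM in tumours and 312, 234 and 360 CPM in livers (log2 fold change -1.50, SE 0.23; adjusted p = 0.00122). With library totals alone Dnajb9 stood at -0.33 and Dnajc3 at -0.21, neither of them called. Dnajc25, a membrane J protein, had the strongest fall of the class, with 5.94, 7.83 and 7.62 CPM in tumours and 40.7, 40.8 and 46.1 CPM in livers (log2 fold change -2.58, SE 0.18; adjusted p = 4.32e-05), and it was the single ER member still lower with library totals alone. Exons of a predicted gene cover 348 bases of its exons on the same strand, so part of its counts is uncertain. Dnajb11, a soluble BiP co-chaperone (log2 fold change -0.92, SE 0.23; adjusted p = 0.0121), and Dnajb12, an ER membrane J protein facing the cytosol (log2 fold change -0.98, SE 0.17; adjusted p = 0.00232), complete the lower set. With library totals alone they stood at 0.38 and 0.31, and Dnajb11 lost its call without liver 3 (adjusted p = 0.0513).

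Dnajc10, the J protein of the ER that reduces disulfide bonds in misfolded proteins, moved against its class. It had 120, 88.8 and 102 CPM in the tumours and 38.6, 28.8 and 42.2 CPM in the livers. Every tumour was above every liver, and the log2 fold change was 1.5 (SE 0.21; adjusted p = 8.41e-04). Dnajc18, another membrane J protein, was also higher, with 23.5, 19.9 and 21.8 CPM in tumours and 12.5, 10.6 and 13.2 CPM in livers (log2 fold change 0.85, SE 0.18, edgeR adjusted p = 0.00525). The 4 ER members not called had fitted log2 fold changes of -0.36 for Dnajb14, -0.29 for Hspa13, -0.28 for Dnajc1 and -0.18 for Dnajc16. Dnajb14 and Dnajc1 are J proteins of the ER membrane and Hspa13 is an HSP70 relative found with microsomes. All 4 were positive with library totals alone, from 0.92 for Dnajb14 to 1.10 for Dnajc16.

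All 10 mitochondrial members were lower in tumours and none overlapped, with log2 fold changes from -2.57 to -0.90 and a median of -1.72. Of all tested genes, 28.7% were called lower, and 68.2% did not overlap, in either direction. With library totals alone, 3 of the 10 were still called lower, where 12.5% of all genes were. Under that scaling 2 turned to the other sign without a call (Dnajc4 0.38 and Dnajc15 0.00290), and the median was -0.44. All 10 lay below the median of all genes under both scalings, an order that a shift shared by all genes cannot change. The chaperonin of the matrix showed the strongest falls. Hspd1, which encodes HSP60, had 82.3, 109 and 61.1 CPM in the tumours and 433, 512 and 550 CPM in the livers. Its log2 fold change was -2.57 (SE 0.28; adjusted p = 2.99e-04). Hspe1, which encodes the HSP10 lid of that chaperonin, had 25.7, 30.4 and 19.1 CPM in tumours and 154, 106 and 108 CPM in livers (log2 fold change -2.29, SE 0.25; adjusted p = 2.91e-04). Within tumours the 2 genes kept the same order, tumour 2 highest and tumour 3 lowest. Within livers they did not, liver 1 being the lowest for Hspd1 and the highest for Hspe1. Their exons overlap by 112 bases on opposite strands, and the sources used here do not say whether counting used strand, so reads of that stretch cannot be assigned.

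Hspa9, the mitochondrial HSP70 known as mortalin and the motor of protein import, had 212, 236 and 169 CPM in the tumours and 707, 672 and 685 CPM in the livers. Its log2 fold change was -1.74 (SE 0.24; adjusted p = 7.38e-04). The J proteins of the import motor, Dnajc19 and Dnajc15, fell to different extents. Dnajc19 had 7.43, 15.3 and 13.7 CPM in tumours and 69.7, 47.4 and 50.6 CPM in livers (log2 fold change -2.20, SE 0.31; adjusted p = 9.49e-04), and Dnajc15 had 14.3, 20.1 and 14.9 CPM in tumours and 47.8, 34.4 and 37.6 CPM in livers (log2 fold change -1.28, SE 0.21; adjusted p = 0.00184). A processed copy, Dnajc19-ps, held from 11.8% to 14.1% of the Dnajc19 count in every library. The deposited FPKM of Dnajc19 was listed at 0 in all 3 tumours despite 454 to 896 counts, so its FPKM level is not given. It still entered the FPKM alternatives, where 5 mitochondrial members were lower with it and 4 without it, and the class median of log2(FPKM + 1) moved from -0.44 to -0.36. Dnaja3, a J protein of the matrix known as Tid1, had a log2 fold change of -1.69 (SE 0.20; adjusted p = 4.38e-04). The remaining members ranged from -1.77 for Dnajc28 through -1.39 for Dnajc30 and -1.31 for Dnajc11, which is tied to the cristae-organising complex, to -0.90 for Dnajc4. Their adjusted p-values by edgeR ran from 4.38e-04 to 0.00782.

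Of the 5 muscle small heat shock proteins, 4 were higher in tumours and 1 was lower, where 29.5% of all tested genes were called higher and 28.7% lower. Among the tumours, tumour 2 had the highest level of 4 of them. Hspb6, which encodes HSP20, a regulator of smooth muscle tone, had 60.6, 413 and 89.4 CPM in the tumours and 22.5, 23.2 and 23.5 CPM in the livers. Every tumour was above every liver, with a log2 fold change of 3.02 (SE 0.73; adjusted p = 0.0102) that was 1.71 without tumour 2 (adjusted p = 3.00e-04). Hspb7, a small heat shock protein of heart and skeletal muscle sarcomeres, had 41.4, 280 and 69.6 CPM in tumours (2531, 16374 and 4343 counts) and 0 counts in all 3 livers. With a floor of 3 counts per library in the livers it was at least 1041-fold higher in tumours, a bound that covers counting error only and was 444-fold without tumour 2. Hspb3, the partner of Hspb2, was at the edge of detection with 0.295, 3.71 and 0.513 CPM in tumours (18, 217 and 32 counts) and 2, 0 and 0 counts in livers. Its tumour to liver ratio was 52.8 (95% exact interval 14.5 to 438, counting error only), or 14.6 (3.83 to 124) without tumour 2. Its fitted log2 fold change of 5.62 was 3.73 without tumour 2 and 9.11 without liver 1, and its call (adjusted p = 0.0181) was lost by limma-voom (adjusted p = 0.0559) and without tumour 2, liver 2 or liver 3 (adjusted p from 0.0516 to 0.0603).

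Hspb8, which works with BAG3 to clear damaged muscle proteins by autophagy, went the other way. It had 16.9, 103 and 18.8 CPM in the tumours and 346, 237 and 386 CPM in the livers. All tumours were below all livers, with tumour 2 nearest, and the log2 fold change was -2.80 (SE 0.75; adjusted p = 0.0157), or -4.17 without tumour 2. Under library totals alone it was not called (adjusted p = 0.0862), and the calls of Hspb6, Hspb7 and Hspb8 were lost with no low-count filter (adjusted p from 0.0923 to 0.146). The skeletal muscle marker sum given above was also highest in tumour 2, at 14795 CPM against 1912 and 3162 CPM in tumours 1 and 3. Markers of other cell types also peaked in tumour 2, where the sums of 6 macrophage, 5 mesothelium and 6 T and B cell markers were 4071, 210 and 83.5 CPM. Those sums were 1117, 72.6 and 29.4 CPM in tumour 1 and 898, 65.2 and 24.7 CPM in tumour 3. The part of any of these tissues in the levels of these 4 genes was not tested. Hspb2, which binds a muscle kinase, did not follow tumour 2. It had 8.92, 9.55 and 10.6 CPM in tumours and 0.162, 0.0867 and 0.206 CPM in livers, so the tumours were close together (log2 fold change 5.96, SE 0.41; adjusted p = 3.83e-05). Its exons overlap those of its neighbour Cryab by 252 bases on opposite strands. Cryab, which encodes the small heat shock protein alpha B-crystallin and is no member by its symbol, had 780, 619 and 836 CPM in tumours and 8.44, 4.64 and 4.79 CPM in livers (log2 fold change 6.97, SE 0.39; adjusted p = 1.98e-05), again without a peak in tumour 2. Reads of the shared stretch cannot be assigned to either gene without strand.

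**Figure D5:**
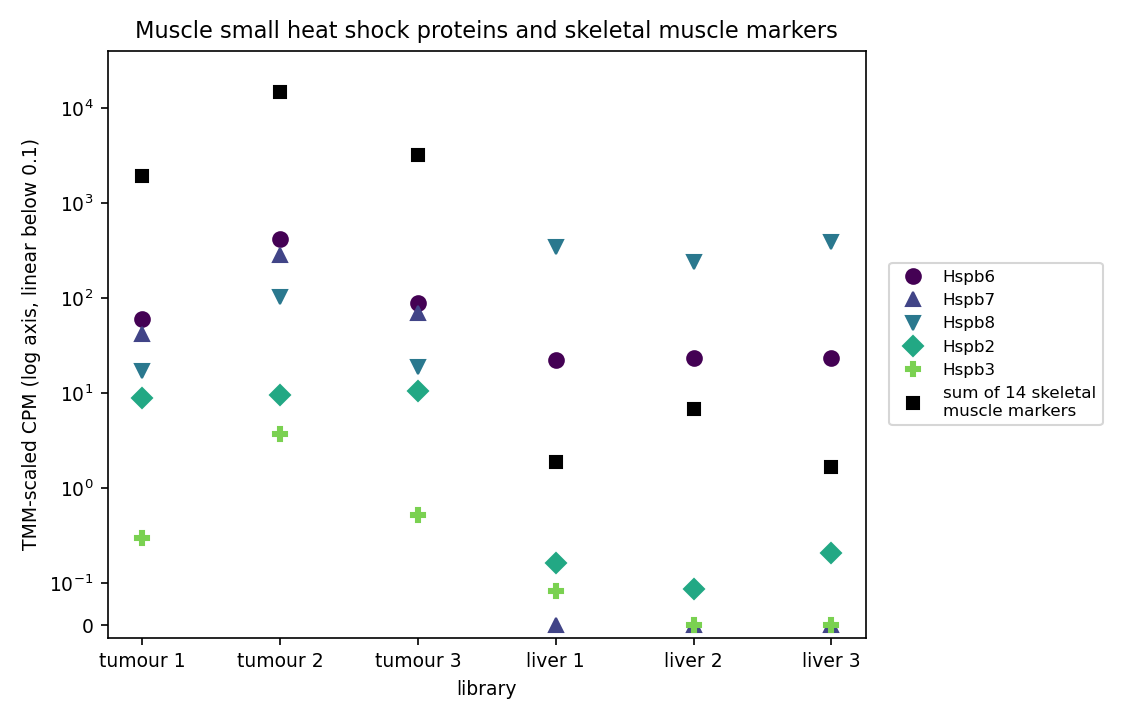
Levels of the 5 muscle small heat shock proteins (coloured) and the summed level of 14 skeletal muscle markers (black squares) in each library, in TMM-scaled CPM on a log axis that is linear below 0.1. Hspb6, Hspb7, Hspb8 and Hspb3 are highest among tumours in tumour 2, as is the marker sum (14795 CPM), while Hspb2 lies between 8.92 and 10.6 CPM in all 3 tumours; Hspb8 is highest in the livers.

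The divergent HSP70 relatives were among the members with the largest rises. Hspa12b, which is known for its expression in endothelial cells, had 97.7, 71.5 and 113 CPM in the tumours and 0.811, 1.91 and 0.908 CPM in the livers, a log2 fold change of 6.28 (SE 0.41; adjusted p = 3.36e-05). Hspa12a had 66.6, 39.98 and 67.5 CPM in tumours and 1.38, 2.43 and 1.65 CPM in livers (log2 fold change 5.0, SE 0.34; adjusted p = 3.83e-05). In both genes all tumours were above all livers and tumour 2 was the lowest tumour, as it was for the endothelial marker sum (2327 CPM against 4263 and 3758 CPM). All 10 endothelial markers were higher in tumours, and their part in the levels of Hspa12a and Hspa12b was not tested.

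Among cytosolic and nuclear DNAJA and DNAJB members, 9 of 11 were tested, and 2 were higher, 3 lower and 4 not called. These shares, 22.2% higher and 33.3% lower, were near the 29.5% and 28.7% of all tested genes. Dnajb5, a J protein of the HSP40 type, had 32.5, 57.4 and 43.0 CPM in the tumours and 9.41, 6.11 and 6.07 CPM in the livers (log2 fold change 2.62, SE 0.29; adjusted p = 3.31e-04). Dnaja4 had 5.37, 20.0 and 8.39 CPM in tumours and 4.34, 2.08 and 3.63 CPM in livers (log2 fold change 1.74, SE 0.55; adjusted p = 0.0290). Its values barely separated, tumour 1 and liver 1 being neighbours, and the call was lost without tumour 2 or any single liver (adjusted p from 0.0552 to 0.0816) and by limma-voom (adjusted p = 0.0972). The gene Wdr61 on the other strand covers 1581 of its 3589 exon bases, so part of its counts is uncertain. Dnaja1, a main co-chaperone of constitutive HSP70, had 82.5, 91.3 and 119 CPM in tumours and 289, 268 and 349 CPM in livers (log2 fold change -1.63, SE 0.23; adjusted p = 9.25e-04), which with library totals alone was -0.33 and not called (adjusted p = 0.211). Dnajb2, a ubiquitin-binding J protein, was lower by a similar size, with a log2 fold change of -1.61 (SE 0.15; adjusted p = 1.42e-04), and was not called under library totals alone (adjusted p = 0.099).

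The 17 tested members outside these classes held 5 that were higher, 3 that were lower and 9 that were not called. The shares were 29.4% higher and 17.6% lower, against 29.5% and 28.7% of all tested genes. The largest fall among all tested members was in this group. Dnajc22 is a membrane J protein whose fly counterpart acts in endocytosis. It had 143, 118 and 140 CPM in the livers and 0.0328, 0.137 and 0.128 CPM in the tumours, which is 2, 8 and 8 counts. Its log2 fold change was -10.36 (SE 0.43; adjusted p = 1.12e-05), and the sum of hepatocyte markers differed in the same direction. Dnajc12, a co-chaperone of aromatic amino acid hydroxylases such as the phenylalanine hydroxylase of liver, had 1.49, 2.27 and 2.15 CPM in tumours and 35.1, 12.2 and 51.5 CPM in livers. Its livers were spread, with liver 2 the lowest, and the log2 fold change was -4.06 (SE 0.55; adjusted p = 7.59e-04). Dnajc27, a GTPase joined to a J domain, had 10.2, 19.3 and 13.1 CPM in tumours and 1.22, 0.954 and 0.867 CPM in livers (log2 fold change 3.80, SE 0.35; adjusted p = 1.32e-04). Dnajc8, a J protein that associates with the splicing machinery, had a log2 fold change of 0.82 (SE 0.19; adjusted p = 0.00828).

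Levels can be set between genes only per transcript length, for which the deposited FPKM values (fragments per kilobase of transcript, scaled to library size) were used. Hspa8 stood highest in both groups, at 686 ± 161 FPKM in tumours and 728 ± 154 FPKM in livers (SD, n = 3), followed by Hsp90ab1 at 475 ± 62.7 FPKM in tumours and 308 ± 41.1 FPKM in livers. In tumours the level of Hsp90b1 (286 ± 51.3 FPKM), Hspa5 (244 ± 45.8 FPKM), Hspb1 (214 ± 36.6 FPKM) and Hspb6 (212 ± 204 FPKM) came next, neighbours whose ranges overlapped. The mean of Hspb6 rested on tumour 2, at 447 FPKM against 77.0 and 113 FPKM in tumours 1 and 3. Hsp90aa1 followed at 158 ± 36.4 FPKM, and in tumours 1 and 3 it was above Hspb6, at 186 and 170 FPKM. In livers the genes after Hsp90ab1 were Hsp90b1 (240 ± 38.6 FPKM), Hspa5 (222 ± 73.3 FPKM), Hspa9 (129 ± 5.998 FPKM), Hspd1 (122 ± 13.9 FPKM) and Hspe1 (113 ± 26.2 FPKM). Hspb1 was thus near BiP in tumours and far below it in livers (12.9 ± 5.58 FPKM). FPKM values are relative to library totals, so they carry the shift between tumours and livers described above and were not used for directions. FPKM was listed at 0 despite at least 100 counts in 8 values of members, among them Hspb2 in all 3 tumours.

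Partner genes of each compartment were read from the same fit, where 29.5% of all tested genes were called higher and 28.7% lower. With library totals alone those shares were 61.5% and 12.5%. Of 12 tested mitochondrial co-chaperones and proteases, 11 were lower in tumours, none was higher and 1 was not called, with a median log2 fold change of -1.54; library totals alone gave 6 lower and 1 higher. The leading one, Atf5, a transcription factor of the mitochondrial stress response, had 50.7, 56.1 and 57.3 CPM in the tumours and 627, 500 and 745 CPM in the livers (log2 fold change -3.51, SE 0.26; adjusted p = 4.75e-05). Of 22 ER folding and unfolded protein response genes, 13 were lower, 2 higher and 7 not called, with a median of -1.06, where library totals alone gave 2 lower and 5 higher. Herpud1, which helps ER-associated degradation, had the largest fall (log2 fold change -3.63, SE 0.34; adjusted p = 1.39e-04). Serpinh1, the collagen chaperone HSP47, had the largest rise, with 423, 284 and 270 CPM in tumours and 20.6, 16.7 and 16.2 CPM in livers (log2 fold change 4.19, SE 0.27; adjusted p = 3.27e-05).

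Of 26 tested heat shock factors and HSP70 or HSP90 co-chaperones, 5 were higher, 12 lower and 9 not called, with a median log2 fold change of -0.40, where library totals alone gave 17 higher and 2 lower. Cryab had the largest rise and Bag4, a nucleotide exchange factor, the largest fall (log2 fold change -2.33, SE 0.18; adjusted p = 5.51e-05). Hsf1, the factor behind the inducible class, was higher, with 35.3, 31.6 and 29.1 CPM in the tumours and 17.0, 19.2 and 17.7 CPM in the livers (log2 fold change 0.83, SE 0.16; adjusted p = 0.00337). Its relative Hsf4 was lower (log2 fold change -2.03, SE 0.31; adjusted p = 0.0012), and Hsf2 was not called at -0.50 (SE 0.20; adjusted p = 0.067), which turned to 0.78 with library totals alone. Hsf4 was not called with library totals alone (adjusted p = 0.0686). The CCT chaperonin, which folds actin and tubulin, and its partner prefoldin held 14 tested genes, of which 1 was higher, 7 lower and 6 not called (median -0.50), where library totals alone gave 9 higher and 0 lower. Vbp1, a prefoldin subunit, was the higher gene (log2 fold change 0.90, SE 0.16; adjusted p = 0.00226), and Pfdn6, another subunit, had the largest fall (log2 fold change -1.40, SE 0.21; adjusted p = 0.00122), a call that library totals alone did not give (adjusted p = 0.647). For comparison, 29.5% of all tested genes were called higher and 28.7% lower with TMM, and 61.5% and 12.5% with library totals alone.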

How the data were processed

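Libraries of 3 EHE tumours and 3 livers, grouped by title, were made from frozen tissue by Qiagen RNA isolation and the DNBSeq protocol, per the labels' protocols. HISAT2 2.1.0, Cufflinks and mm10 are named in the submitters' processing notes. The deposited table holds the authors' whole-number counts per Ensembl gene, and the authors' FPKM values come in a file per library. The sources used here name no counting tool, annotation or strand setting. Among values of 1 to 10 counts, 55.0% to 70.7% were even, as when both mates of a fragment are counted, and intervals and floors, which cover counting error only, may be too narrow.

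Counts were fitted over all genes with edgeR 4.0.16 in R 4.3.3 (filterByExpr, 17387 of 55401 genes; TMM; robust quasi-likelihood test, no covariates), adjusted by Benjamini-Hochberg and called at an adjusted p under 0.05. TMM factors ran from 1.52 to 1.62 for tumours and from 0.61 to 0.68 for livers. The common biological coefficient of variation was 0.393. Ratios within a library had an exact permutation test. Replicate libraries differed by more than sampling noise (chi-square per degree of freedom from 95.8), so none was counted as a duplicate. Alternatives were RLE size factors, library totals alone, TMM without the 100 most abundant genes, no filter, a filter of 1 CPM in 3 libraries, limma 3.58.1 with voom, DESeq2 1.42.0, limma on log2(FPKM + 1) or log2(FPKM + 0.1), testing against 2-fold, a replicate block and leaving libraries out. The scripts were tested on simulated data.

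Members, classes, lists and tests were chosen with earlier results of these data known. Named genes were all tested inducible, ER, mitochondrial and muscle small heat shock members, the called members with the largest rises and falls elsewhere (up to 2 in each direction per class, at 1 CPM or more), and the leading called gene in each direction of each partner list. One member enters the counts and fits but is not reported here. Hsp90ab1, Hsf1, Hsf2 and Hsf4 were named after their values were seen. Positions are those of GENCODE M21 and RefSeq on GRCm38. Exons of 28 of the 73 members overlap those of another gene, also for members where this is not said above. Among these are Hspa1a (564 of 2967 exon bases), Dnajc30 (436 of 1661), Hsp90b1 and Dnaja1, so part of their counts is uncertain as well.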

Additional observations from a re-analysis of the deposited data

How the results depend on the processing

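With library totals alone 42 members were higher and 6 lower, where 61.5% of all genes were called higher and 12.5% lower. Of the ER members 6 were higher and 1 lower, 3 mitochondrial members were lower, and no muscle member was lower. Limma on log2(FPKM + 1) and on log2(FPKM + 0.1) each gave 35 higher and 11 lower of 63 tested members (ER 6 and 1, mitochondrial 5 lower or 4 without Dnajc19, muscle 2 higher of 3 tested), where 63.2% of all genes were called higher and 14.9% or 14.8% lower. Without a filter log2(FPKM + 1) gave 35 and 10 of 69 (ER 6 and 1, mitochondrial 5 lower or 4 without Dnajc19, muscle 2 and 0 of 4 tested), where 33.2% and 7.60% of all genes were called. Hspb2, listed at 0 FPKM, was in none of these fits. A test against a 2-fold change left 13 higher members (ER 1 higher and 3 lower), where 19.1% of all genes were called higher and 16.8% lower. No low-count filter gave 2 higher and 0 lower muscle members, where 14.9% of all genes were called higher and 12.4% lower. Signs turned, with library totals alone, log2(FPKM + 1), log2(FPKM + 0.1) and log2(FPKM + 1) without a filter in that order, for Dnajb11 (0.38, 0.35, 0.35, 0.35), Dnajb12 (0.31, 0.24, 0.25, 0.24), Dnajb14 (0.92, 0.63, 0.83, 0.63), Dnajc1 (1.01, 0.84, 0.99, 0.84), Dnajc16 (1.10, 0.80, 1.04, 0.80), Dnajc4 (0.38, 0.29, 0.32, 0.29), Hsp90ab1 (0.68, 0.62, 0.62, 0.62), Hsp90b1 (0.31, 0.25, 0.25, 0.25), Hsf2 (0.78, 0.64, 0.71, 0.64), Hspa13 (1.00, 0.88, 0.97, 0.88), Hspa5 (0.18, 0.17, 0.17, 0.17) and Hsph1 (1.13, 0.53, 0.56, 0.53). With library totals alone they also turned for Dnajc15 (0.0029) and Hspa8 (0.31). The median of all genes was 1.38, 0.98, 1.17 and 0.105 under these 4 settings, and the ER median less that median was -1.0, -0.64, -0.82 and 0.24, so without a filter the ER class also changed side relative to all genes. The log2 ratio of Hspa5 to Hspa8 was 0.263 with FPKM values.

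Leaving out 1 library at a time gave 16 to 19 higher and 21 to 25 lower members. Of all genes, 22.8% to 28.3% were then called higher and 23.3% to 28.8% lower. By class there were 3 to 4 higher inducible, 4 to 7 lower ER (4 without liver 3), 10 lower mitochondrial and 3 to 4 higher muscle members. The log2 ratio of Hspa5 to Hspa8 ran from -0.33 to 0.0559 (the highest without tumour 2), and Hsph1 from -0.27 to 0.143 (the highest without liver 3); the cause was not tested. Under RLE size factors, TMM without the 100 most abundant genes, 1 CPM in 3 libraries, DESeq2 and limma-voom, the counts of the 4 contrasted classes stayed within 1.5 times the values reported. Same-numbered tumours and livers correlated at 0.019, 0.037 and -0.025, where the other pairs ran from -0.135 to 0.149. That check between unlike tissues cannot decide whether the numbers pair samples. With a replicate block 18 members were higher and 23 lower, where 26.0% of all genes were called higher and 26.3% lower. Hspa5, Hspa8 and Dnaja4 were not called with the block (edgeR adjusted p = 0.0568, 0.0783 and 0.0968). With 3 libraries a group, members at a few counts, such as Hspb3 and Hspa1a in livers, rest on little depth.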
